A study of Mus musculus with 10 samples.

Results

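The genes described here lie on mouse chromosome 16, around 3 long non-coding RNA (lncRNA) genes named 1810053B23Rik, 1700029J03Rik and Gm30695. These 3 were selected on their measured values, because their counts differed between Dusp2 conditional knockout (cKO) and control mice, so their genotype difference is given as a description and supports nothing further. The other members are the protein-coding genes, and the lncRNA genes with a Gm or Rik name, within 5.0 Mb on either side of the interval that holds the 3, with at least 100 counts summed over the 10 libraries and leaving out Mrps, Mrpl and Atp5 genes. This gave 63 of the 57010 genes in the table, 52 of them protein coding and 11 lncRNA, with 30 on each side of the interval. Of 183 genes of these kinds in the window, 120 had too few counts, and 77 of those had none. Just outside the minimum were Gm31641 with 98 counts and 2310043M15Rik with 96, and just inside were Dscam and Fam3b with 130 each.

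The libraries came from CD8+ T cells of the spleens of 5 mice. Cells of each mouse were kept for 24 h either with beads carrying anti-CD3 and anti-CD28 to mimic antigen and co-stimulation (activated), or without them (rested), and each state gave 1 library. The 3 cKO mice were Dusp2fl/fl-E8I-cre+/-, that is, both Dusp2 copies were floxed and the E8I-cre transgene, which acts in CD8+ T cells, was carried. The 2 control mice were Dusp2fl/fl-E8I-cre-/-. cKO mouse 3 and control mouse 2 were female and the other mice male, and the labels give no age. Both genotypes thus share the floxed Dusp2 and differ in cre. Loss of Dusp2 and presence of cre therefore cannot be told apart. Which part of Dusp2 is floxed is not given in the sources used here. Dusp2 itself, which encodes a nuclear phosphatase that acts on MAP kinases, had 56.3, 46.4 and 52.6 CPM (counts per TMM-scaled library size) in activated cKO cells against 292 and 299 CPM in activated control cells, and 25.0, 24.8 and 28.1 CPM in rested cKO cells against 87.8 and 97.4 CPM in rested control cells. For cKO mouse 3, the titles of its 2 libraries disagree with the genotype and treatment labels and the library names, which were followed.

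Libraries held 51203786 to 65135435 counts, and 3 counts, the floor used for a gene at 0, equal 0.0461 to 0.0586 CPM in a library. The 6 CD8 T cell markers summed to between 2340 and 2720 CPM in every library, with Cd8a at 512 to 659 CPM and Cd4 at 0.16 to 1.22 CPM. The 6 B cell markers summed to 226 to 282 CPM in activated and 279 to 361 CPM in rested libraries. Nearly all of this was Ighm (223 to 354 CPM), while Ms4a1 and Pax5 stayed at or below 0.104 CPM. The 4 markers of CD4 and regulatory T cells summed to 50.8 to 83.4 CPM in activated and 9.54 to 18 CPM in rested libraries, with Ctla4, which activated CD8+ T cells also express, at 5.46 to 50.1 CPM. The 7 NK markers summed to at most 7.15 CPM and the 8 myeloid markers to at most 3.92 CPM. The 9 erythroid and platelet markers summed to 16.6 to 29.5 CPM, nearly all of it Itga2b. The part of the B cell and CD4 lists, which move with activation, in the activation differences below was not tested. In bulk RNA, fewer cells of a type and less RNA per cell cannot be told apart.

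This stretch of mouse chromosome 16 corresponds to part of human chromosome 21. It holds a cluster of cytokine receptor genes, Ifnar2, Il10rb, Ifnar1 and Ifngr2, whose proteins carry type I interferon, IL-10 family and interferon gamma signals to JAK kinases and STAT factors. It also holds Runx1 and Ets2, which encode DNA-binding transcription factors, and Rcan1, which encodes an inhibitor of calcineurin. Calcineurin is the phosphatase that sends NFAT into the nucleus after T cell receptor stimulation. The 3 lncRNA genes have no function that is stated here.

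In the deposited mm39 coordinates, the minus-strand genes 1810053B23Rik (chr16:93139392-93163556), 1700029J03Rik (chr16:93188565-93255760) and Gm30695 (chr16:93269055-93283962) lie 25.0 kb and 13.3 kb apart, in an interval of 144.6 kb. Between Runx1 on one side and Setd4 on the other are 757.3 kb and 8 genes of the table, and the 3 lncRNA genes are the only ones of the 8 with any count in these libraries. The promoter windows of the 3 and of Rcan1 and Runx1, their nearest protein-coding neighbours on the low side, are shown because the first are the genes the selection turns on and the others hold motifs of T cell factors. Each runs 5′ to 3′ on the minus strand, from 250 bases before to 50 bases after a transcript start, as RefSeq gives it for GRCm38.p6, a build other than that of the counts. Where a gene had several starts, the one with most motif matches is shown, out of 4 for 1810053B23Rik and 2 each for Gm30695, Rcan1 and Runx1. Capitals mark matches on either strand to AP-1 (TGANTCA), the NFAT core (GGAAAA), the RUNX core (TGTGGT), the core of the interferon-stimulated response element (ISRE) or the TATA box (TATAAA, whose matches can overlap each other).
1810053B23Rik (chr16:93353140-93353439): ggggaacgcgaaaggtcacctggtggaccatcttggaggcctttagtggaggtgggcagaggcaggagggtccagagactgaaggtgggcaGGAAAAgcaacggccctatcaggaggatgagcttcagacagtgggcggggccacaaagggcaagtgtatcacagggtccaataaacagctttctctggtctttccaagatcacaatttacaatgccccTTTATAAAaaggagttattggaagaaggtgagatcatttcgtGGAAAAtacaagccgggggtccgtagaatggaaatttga
1700029J03Rik (chr16:93458823-93459122): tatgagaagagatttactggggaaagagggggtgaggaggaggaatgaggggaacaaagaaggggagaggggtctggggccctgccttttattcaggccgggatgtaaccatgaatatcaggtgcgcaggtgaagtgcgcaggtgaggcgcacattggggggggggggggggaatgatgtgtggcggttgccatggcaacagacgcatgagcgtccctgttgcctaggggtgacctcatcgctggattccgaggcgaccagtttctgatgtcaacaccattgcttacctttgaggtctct
Gm30695 (chr16:93493224-93493523): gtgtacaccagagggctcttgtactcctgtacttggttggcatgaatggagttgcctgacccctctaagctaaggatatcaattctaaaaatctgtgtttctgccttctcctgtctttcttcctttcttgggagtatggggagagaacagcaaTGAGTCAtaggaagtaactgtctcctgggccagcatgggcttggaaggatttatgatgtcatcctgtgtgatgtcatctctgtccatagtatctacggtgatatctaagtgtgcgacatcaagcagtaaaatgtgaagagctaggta
Rcan1 (chr16:92400029-92400328): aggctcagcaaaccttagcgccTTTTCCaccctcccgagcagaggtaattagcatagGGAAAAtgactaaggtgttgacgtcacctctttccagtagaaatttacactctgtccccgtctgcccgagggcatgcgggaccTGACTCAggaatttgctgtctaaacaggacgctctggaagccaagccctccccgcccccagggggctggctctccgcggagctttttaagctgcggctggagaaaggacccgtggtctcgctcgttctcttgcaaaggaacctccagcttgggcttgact
Runx1 (chr16:92826025-92826324): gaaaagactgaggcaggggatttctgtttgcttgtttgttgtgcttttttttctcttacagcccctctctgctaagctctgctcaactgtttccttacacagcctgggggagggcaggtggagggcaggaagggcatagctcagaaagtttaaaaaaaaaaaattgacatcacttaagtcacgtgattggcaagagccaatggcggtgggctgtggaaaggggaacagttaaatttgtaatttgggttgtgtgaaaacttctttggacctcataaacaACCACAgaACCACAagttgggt

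The 1810053B23Rik window held a pair of NFAT cores and a TATA box read on both strands just before the start, the Gm30695 window an AP-1 match, and the 1700029J03Rik window none of the 5 motifs. The Rcan1 window held an AP-1 match and NFAT cores, and the Runx1 window a pair of RUNX cores just after the start. The window of Setd4, the nearest member on the other side, held none of the 5 motifs and is not shown. A promoter was listed for 49 of the 63 genes, in 66 windows. AP-1 matches occurred in 4.55% of these windows against 7.81% of all 32851 windows, NFAT cores in 22.7% against 23.4%, RUNX cores in 9.09% against 16.8%, ISRE cores in 1.52% against 3.44% and TATA boxes in 3.03% against 13.6%. The median GC content was 67% for the interval windows and 52.7% for all windows, and none of these shares takes that into account. AP-1 matches were found in Gm30695, Rcan1 and Tiam1, and the ISRE core in A930006K02Rik alone. These are matches of letters, not sites shown to be bound.

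The 3 lncRNA genes were read at low levels in every cKO library and were at or near 0 in every control library. 1810053B23Rik had 46, 62 and 44 raw counts in activated cKO cells against 0 and 0 in activated control cells, and 49, 68 and 39 in rested cKO cells against 1 and 0 in rested control cells. 1700029J03Rik had 25, 33 and 14 counts in activated cKO cells against 0 and 0 in activated control cells, and 30, 47 and 32 in rested cKO cells against 0 and 3 in rested control cells. Gm30695 had 30, 22 and 39 counts in activated cKO cells against 0 and 0 in activated control cells, and 27, 23 and 32 in rested cKO cells against 0 and 0 in rested control cells. No library of one genotype overlapped the other for any of the 3 genes, in either state. With control counts at 0 and the floor of 3 counts taken over the group, activated cKO cells were 35.8-fold higher for 1810053B23Rik, 17-fold for 1700029J03Rik and 21.4-fold for Gm30695. The exact 95% intervals of these ratios began at 28.8, 13.4 and 17.1. At rest Gm30695 was 19.4-fold higher in cKO cells against the floor, and its interval began at 15.5. The rested ratio was 111 for 1810053B23Rik (exact 95% interval 19.6 to 4410, from 156 counts against 1) and 25.8 for 1700029J03Rik (8.61 to 127, from 109 counts against 3). Intervals cover counting error only, and the floor ratios leave out that of the cKO counts. Because these differences chose the genes, no p-value is given for them.

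**Figure D1:**
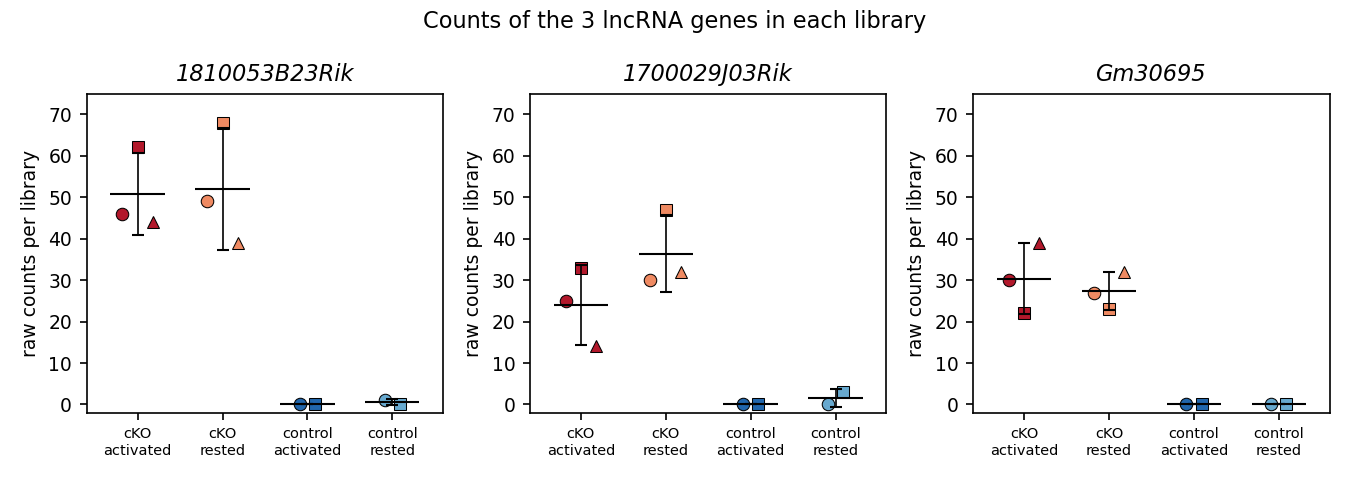
Raw counts per library (vertical axis) of the 3 lncRNA genes in the 4 groups (horizontal axis); each symbol is a mouse (circle 1, square 2, triangle 3), bars are means and whiskers SD. All cKO libraries held between 14 and 68 counts of each gene, and no control library held more than 3.

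Even in cKO cells these were among the least abundant of the 63 genes. Per length, in the deposited FPKM, 1810053B23Rik averaged 0.151 in activated and 0.163 in rested cKO cells, 1700029J03Rik 0.271 and 0.429, and Gm30695 0.373 and 0.358. The order per length thus put 1810053B23Rik, which has the most counts and the longest transcript model (5777 bp), below the other 2. Of the counts of the 3 genes together in a library, 1810053B23Rik took 45.5%, 53% and 45.4% in activated and 46.2%, 49.3% and 37.9% in rested cKO cells. Gm30695 took 29.7%, 18.8% and 40.2% in activated and 25.5%, 16.7% and 31.1% in rested cKO cells, and was lowest in mouse 2 and highest in mouse 3 in both states. These shares rest on few counts, and the exact 95% interval of the highest Gm30695 share ran from 30.4% to 50.7%.

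None of the 3 genes was called on activation within cKO cells by edgeR or DESeq2. The log2 fold change, activated over rested, was -0.16 (SE 0.30) for 1810053B23Rik, -0.76 (SE 0.47) for 1700029J03Rik and -0.02 (SE 0.38) for Gm30695, where SE is the fold change divided by the square root of edgeR's F statistic. The p of edgeR's quasi-likelihood test, adjusted after Benjamini and Hochberg over 18966 genes and called edgeR adjusted p from here on, was 0.666, 0.178 and 0.982. The libraries of the 2 states overlapped for 1810053B23Rik and Gm30695. For 1700029J03Rik the raw counts overlapped as well, at 14 to 33 in activated and 30 to 47 in rested cells, while its CPM did not, at 0.236 to 0.569 and 0.59 to 0.818. On log2(FPKM + 0.5), limma called 1700029J03Rik lower in activated cKO cells (difference -0.27, adjusted p = 0.0477), and on log2(FPKM + 0.1) it did not. Changes of the size of these errors could not be detected at this depth.

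The 60 neighbours were taken by position, kind and counts, and the 3 lncRNA genes, chosen for their genotype difference, are no yardstick for them. The log2 fold change, cKO over control, of the other 60 ran from -0.82 to 0.45 in activated and from -0.39 to 1.67 in rested cells. None of the 60 had an edgeR adjusted p below 0.05 between cKO and control cells in either state, where 0.0422% of all genes tested did in activated and 0.0422% in rested cells, and none passed by DESeq2 or limma. The same fit put 2 of the 63 genes past that threshold in each state, 1810053B23Rik and Gm30695, a count that the choice of these genes fixes and that is no test of them. At an unadjusted edgeR p below 0.05 there were 7 of the 60 in activated cells (11.7%, against 6.02% of all genes) and 10 in rested cells (16.7%, against 4.13%), and by DESeq2 6 and 5. These counts moved with single mice. In activated cells the count was 6, 8 and 3 without cKO mouse 1, 2 and 3, 4 with no sex term and 13 when only the groups compared were fitted. At rest it was 3, 7 and 6 without cKO mouse 1, 2 and 3, and 5 with no sex term. Limma on either log2 FPKM scale gave 10 in activated and 8 in rested cells, and limma-voom with a mouse block 8 and 7. Fits with 1 control mouse left are not listed. The share of all genes was not worked out for these refits, so a general loss of power cannot be told apart from a change in these genes. The median of the 60 was -0.02 in both states, and the median absolute value was 0.10 in activated and 0.08 in rested cells. In activated cells, 4 of the 60 had all cKO libraries above all control libraries and 11 had all below, where 7.7% and 9.36% of all genes did. In rested cells these counts were 4 and 3, where 8.96% and 8.69% of all genes did.

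Setd4, which encodes a SET-domain methyltransferase, is the nearest gene with counts above the minimum, 96.4 kb from the interval. It had 22.8, 20.0 and 19.3 CPM in activated cKO cells against 17.5 and 18.7 CPM in activated control cells, and 13.8, 12.1 and 11.0 CPM in rested cKO cells against 9.65 and 8.57 CPM in rested control cells. Every cKO library thus lay above every control library of the same state, and the log2 fold changes were 0.17 (SE 0.10) when activated and 0.41 (SE 0.11) at rest. Cbr1, which encodes a carbonyl reductase and begins 118.8 kb away, had 12.8, 15.0 and 13.3 CPM in activated cKO cells against 12.04 and 11.67 CPM in activated control cells. At rest it had 23.1, 23.7 and 21.2 CPM in cKO cells against 19.4 and 18.5 CPM in control cells. Its groups did not overlap either, with log2 fold changes of 0.19 (SE 0.09) and 0.24 (SE 0.09). Neither Setd4 nor Cbr1 passed the threshold over all genes in either state.

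The next genes outward on that side, Dop1b, Gm30881, Morc3 and Chaf1b, overlapped between genotypes in both states. Dop1b, at 224.8 kb, differed by 0.01 (SE 0.07) on the log2 scale in each state, and Morc3, at 345.0 kb, by -0.03 (SE 0.06) when activated and -0.02 (SE 0.06) at rest. On the other side, Runx1 lies 516.4 kb away, and differed by -0.05 (SE 0.08) when activated and -0.11 (SE 0.08) at rest. The genes after it, Rcan1 at 871.6 kb, Smim11 at 1029.5 kb, Gm49711, Gm16310 and Slc5a3, lay between -0.23 and 0.23. By distance, the median was 0.09 in activated and 0.02 in rested cells for the 6 genes within 0.5 Mb, -0.03 and -0.04 for the 28 genes at 0.5 to 2 Mb, and -0.03 and -0.01 for the 26 genes at 2 to 5 Mb. The genes with the widest differences were low ones with large errors. Dscam, which encodes a neural cell adhesion molecule, had 24, 18 and 6 raw counts in activated cKO cells against 8 and 10 in activated control cells, and 18, 31 and 5 in rested cKO cells against 8 and 2 in rested control cells. Its groups overlapped in both states (log2 fold change 0.45, SE 0.63, in activated and 1.67, SE 0.67, in rested cells).

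**Figure D2:**
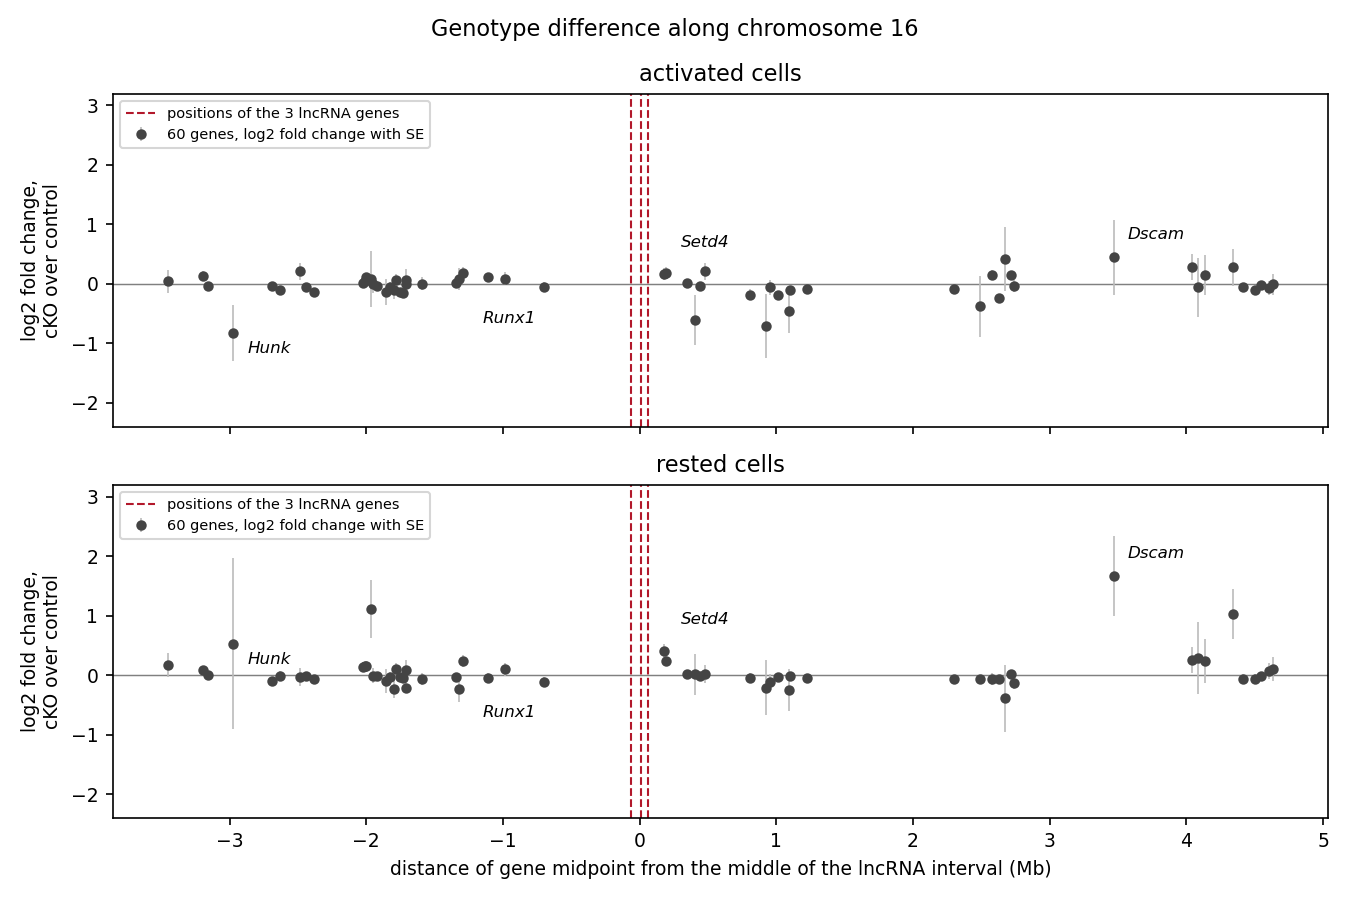
Log2 fold change, cKO over control, with SE (vertical axis) of the 60 neighbouring genes against the distance of their midpoint from the middle of the lncRNA interval in Mb (horizontal axis), in activated (top) and rested (bottom) cells; dashed lines mark the 3 lncRNA genes, whose fold changes rest on control counts at or near 0 and are not drawn. Nearly all points lie close to 0 at every distance, and those farthest from it, such as Dscam (1.67 at rest) and Hunk (-0.82 when activated), carry wide errors.

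Activation, which the choice of the 3 genes did not use, moved most of the interval. In cKO cells 47 of the 63 genes changed (74.6%, against 63.4% of all genes tested), 21 of them higher (31.5% of all genes were) and 26 lower (31.9%) in activated cells. In control cells 45 changed (71.4%, against 56.1%), 20 higher (28.5% of all genes) and 25 lower (27.6%). The minimum of 100 counts favours well-read genes, and among protein-coding genes alone the shares were 78.8% against 72.9% of all such genes in cKO cells and 76.9% against 66.3% in control cells. Of those changed, 18 in cKO and 17 in control cells moved at least 2-fold, or 38.3% and 37.8%, against 38.7% and 38.9% over all changed genes. The median log2 fold change of the 63 was -0.14 in cKO and -0.08 in control cells, against -0.01 and -0.00 over all genes, so higher and lower genes were nearly balanced. The median absolute value was 0.68 in cKO and 0.71 in control cells, against 0.58 and 0.56. Hunk, Ripk4 and Gm15340, which are among the higher genes in both genotypes, reached the minimum of 100 counts through their activated libraries. Ripply3 and Gm30881, which are among the lower genes in both, reached it through their rested libraries. The changes of these genes are therefore a description and no test, although the counts above include them.

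The interval genes called on activation in both genotypes moved in the same direction in both. Of the 63, 20 were higher and 24 lower in both, 15 changed in neither, and none was called in opposite directions. Called or not, 56 of the 63 had fold changes of the same sign in both genotypes, as had 16895 of all 18966 genes tested. The agreement is thus not particular to the interval. Chaf1b (higher) and Gm31323 and Synj1 (lower) passed in cKO cells alone, and Cryzl1 (lower) in control cells alone, but the test of the difference passed for none of them. Each of these 4 calls was lost when at least 1 mouse of its genotype was left out. That interaction test, which asks whether activation moved a gene differently in cKO and control cells, called 0 of the 63 genes by edgeR (0% of all genes), 0 by DESeq2 and 0 by limma. By edgeR 0 of the 63 had an unadjusted interaction p below 0.05, as 2.74% of all genes had. The median absolute interaction of the 60 genes other than the lncRNA trio was 0.10 on the log2 scale. Across genes, the activation fold changes of cKO and control cells correlated at a Pearson r of 0.94 over the 63 genes and 0.89 over all 18966 genes tested. Genes are not independent replicates, and both values share the same handling and sequencing.

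**Figure D3:**
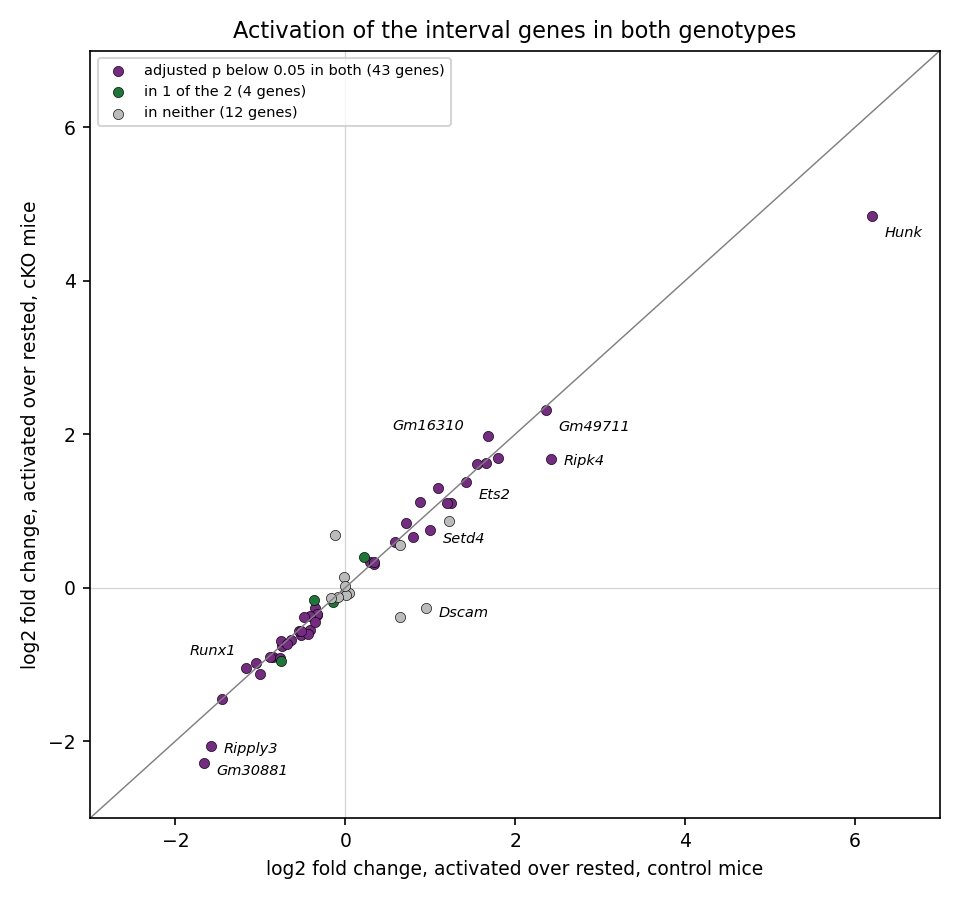
Log2 fold change, activated over rested, in cKO (vertical axis) and control mice (horizontal axis) for the interval genes, each point a gene; the line marks equal change, and the lncRNA trio and Gm15340, with groups at or near 0, are not drawn. Most points lie on the line, and Hunk (4.85 in cKO, 6.20 in control), whose rested counts came from 1 mouse of each genotype, stands farthest out.

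All 4 cytokine receptor genes fell on activation, in both genotypes. Ifnar1, a chain of the type I interferon receptor, had 168, 162 and 145 CPM in activated against 232, 228 and 244 CPM in rested cKO cells, and 169 and 154 CPM in activated against 234.5 and 238 CPM in rested control cells. Its groups did not overlap (log2 fold change -0.57, SE 0.06, in cKO and -0.55, SE 0.07, in control cells, edgeR adjusted p = 2.04e-06 and 3e-05). Ifnar2, the other chain, had 44.6, 46.2 and 41.1 CPM in activated against 71.2, 65.3 and 56.9 CPM in rested cKO cells, and 45.4 and 39.8 CPM in activated against 61.2 and 53.1 CPM in rested control cells. It changed by -0.55 (SE 0.05) in cKO and -0.42 (SE 0.07) in control cells (edgeR adjusted p = 1.15e-06 and 0.000121). Il10rb, the chain shared by receptors of IL-10, IL-22 and type III interferon, had 56.9, 59.6 and 47.3 CPM in activated against 95.5, 88.0 and 79.4 CPM in rested cKO cells, and 51.2 and 47.1 CPM in activated against 82.3 and 71.1 CPM in rested control cells. It fell by 0.68 (SE 0.06) and 0.64 (SE 0.07) on the log2 scale (edgeR adjusted p = 1.57e-07 and 3.59e-06). Ifngr2, the signalling chain of the interferon gamma receptor, varied more between mice, with 18.6, 31.8 and 29.6 CPM in activated against 40.5, 46.6 and 63.2 CPM in rested cKO cells, and 29.4 and 31.4 CPM in activated against 48.6 and 62.3 CPM in rested control cells. Its groups did not overlap (log2 fold change -0.90, SE 0.19, and -0.85, SE 0.23, edgeR adjusted p = 0.00461 and 0.0166). The cKO call was lost without cKO mouse 3 (adjusted p = 0.0562) and the control call without control mouse 1 (0.122) or control mouse 2 (0.233). Gm21970, a protein-coding model that overlaps Ifnar2 by 21729 bp and Il10rb by 19671 bp on the same strand, fell by 0.61 and 0.52, and reads in the overlap may have been divided between the 3 genes.

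Partners of these receptors outside the interval did not move one way. Of 10 partner genes tested, 6 were higher, 3 lower and 1 not called in cKO cells, where 31.5% of all genes were higher and 31.9% lower. In control cells 5 were higher, 3 lower and 2 not called, where 28.5% and 27.6% of all genes were, and these shares are the background of each partner list below. The median log2 fold change of the 10 was 0.32 and 0.28, against -0.01 and -0.00 over all genes. The lower ones were the ligand-binding chains Il10ra (log2 fold change -1.63 in cKO cells) and Ifngr1 (-1.29) and the kinase Jak1 (-1.17). The higher ones included Irf9, the DNA-binding subunit of the factor that type I interferon activates, at 0.59 (SE 0.07) in cKO and 0.66 (SE 0.09) in control cells (edgeR adjusted p = 6.15e-06 and 2.16e-05). Mx1 and Mx2, antiviral GTPase genes that interferon induces, are members of the interval and were read at low levels. Mx1 had 1.57, 1.83 and 2.35 CPM in activated against 2.07, 2.02 and 2.23 CPM in rested cKO cells, and 1.52 and 1.68 CPM in activated against 2.01 and 1.56 CPM in rested control cells. Its states overlapped in both genotypes (-0.14, SE 0.19, and -0.17, SE 0.24), as did those of Mx2 (0.56, SE 0.31, and 0.64, SE 0.38), and neither gene was called.

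The transcription factor genes went in opposite directions. Runx1 had 16.8, 18.5 and 19.8 CPM in activated against 38.4, 33.9 and 36.6 CPM in rested cKO cells, and 19.0 and 19.4 CPM in activated against 37.1 and 42.3 CPM in rested control cells. It fell in every mouse, by 0.98 (SE 0.07) in cKO and 1.05 (SE 0.09) in control cells on the log2 scale (edgeR adjusted p = 5.68e-08 and 3.97e-07). Ets2, a factor of the ETS family, had 56.1, 53.5 and 60.1 CPM in activated against 20.4, 20.7 and 23.9 CPM in rested cKO cells, and 58.6 and 64.7 CPM in activated against 21.4 and 24.7 CPM in rested control cells. It rose in every mouse (log2 fold change 1.38, SE 0.05, and 1.42, SE 0.07, edgeR adjusted p = 3.17e-10 and 3e-09). Zbtb21, a zinc finger gene, rose by 0.59 in both genotypes (SE 0.05 and 0.07), while Prdm15, another zinc finger gene, differed by 0.02 (SE 0.07) and -0.00 (SE 0.08) and was not called. Zbtb21 overlaps C2cd2, which fell, over 19242 bp on the same strand, so reads may have been divided between them. Ripply3, a transcriptional repressor gene, was low, with 11, 25 and 8 raw counts in activated against 74, 56 and 37 in rested cKO cells and 33 and 15 in activated against 45 and 76 in rested control cells. It fell by 2.07 (SE 0.45) and 1.58 (SE 0.53). The control value was -0.47 without control mouse 2 and -2.56 without control mouse 1. Ripply3 reached the count minimum through its rested libraries, so its fall is given as a description and is no test. Among the RUNX partners outside the interval, Runx3 fell (-0.98 in cKO and -0.76 in control cells), Cbfb, the shared cofactor, rose (0.21 and 0.18), and Runx2 was not called (-0.19 in both).

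**Figure D4:**
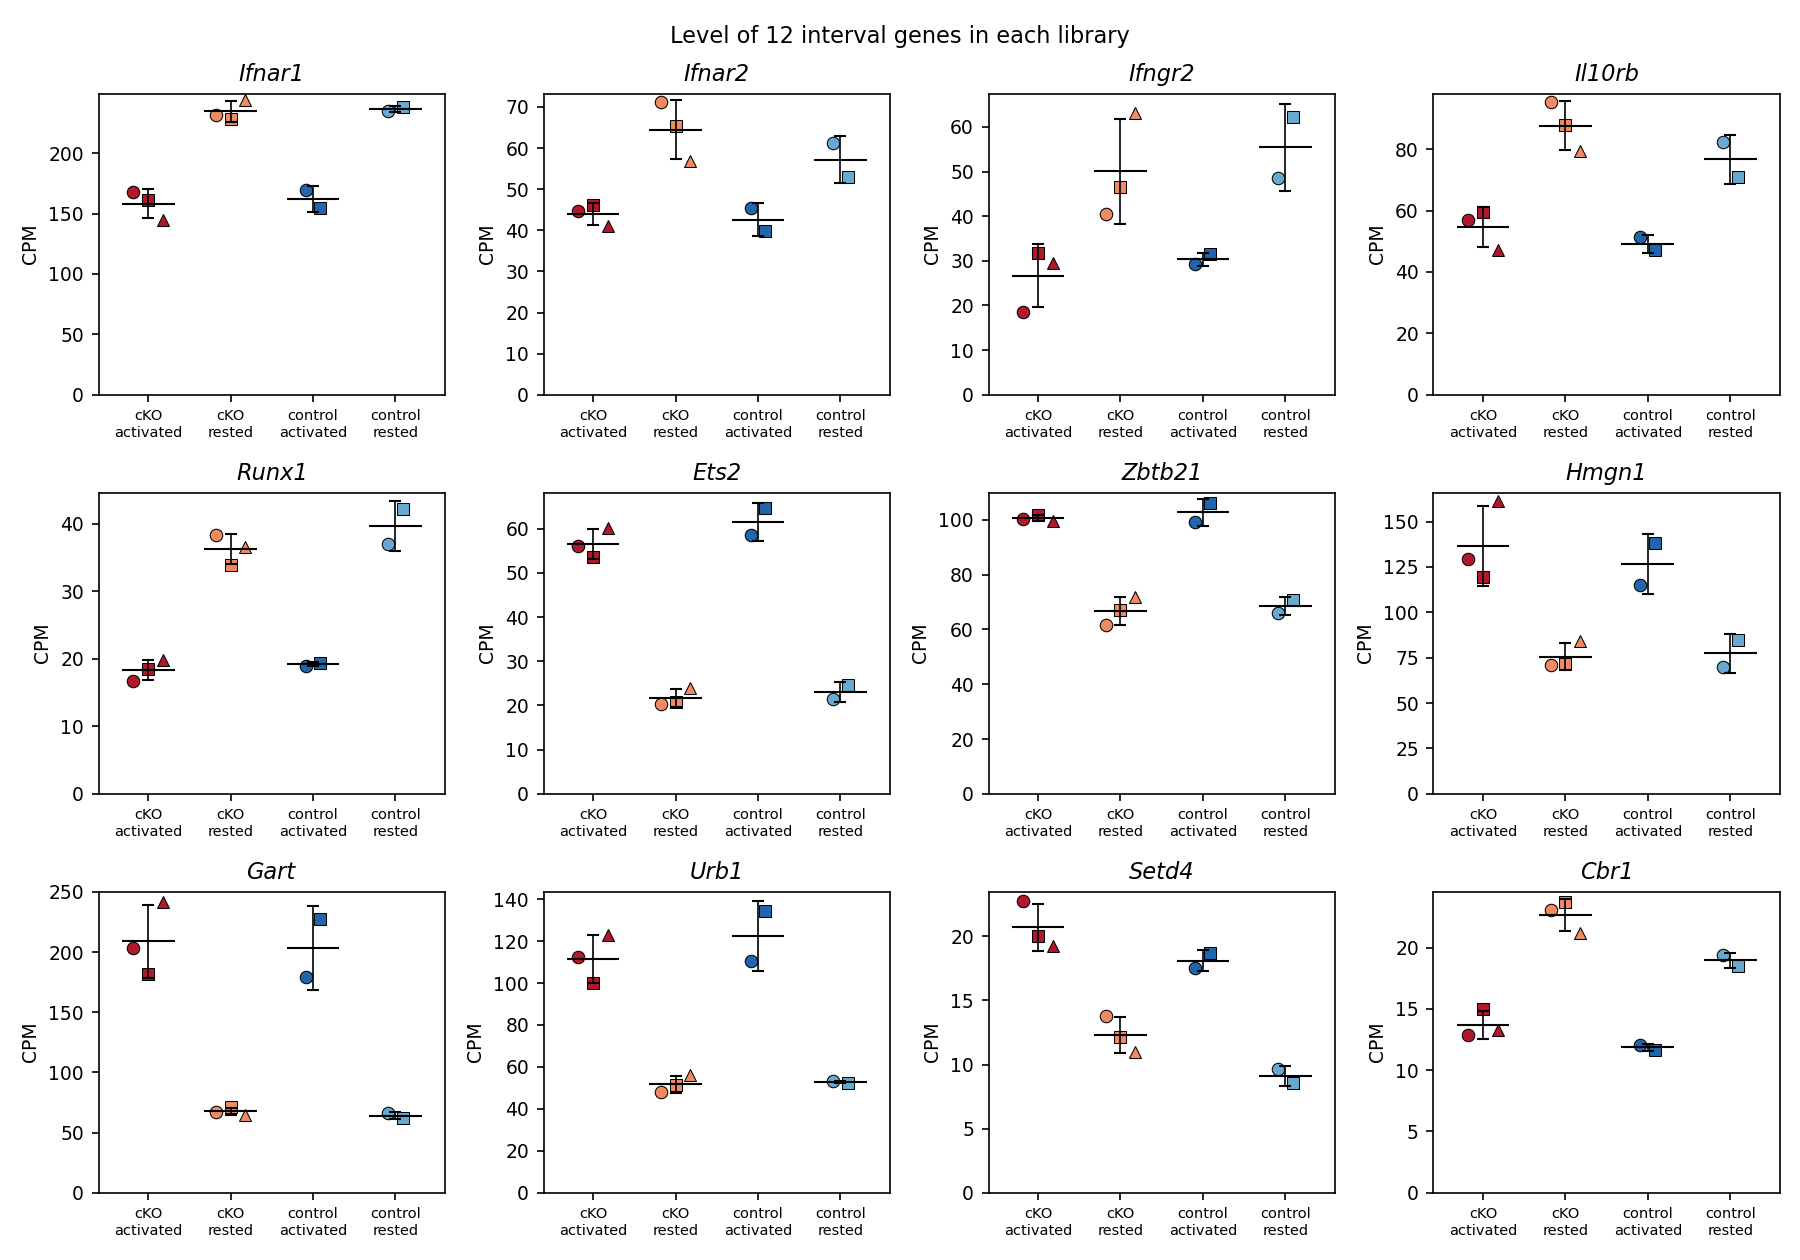
CPM per library (vertical axes, each from 0) of 12 interval genes in the 4 groups; each symbol is a mouse (circle 1, square 2, triangle 3), bars are means and whiskers SD. The 4 receptor genes, Runx1 and Cbr1 are lower in activated than in rested cells of both genotypes, the other 6 genes are higher, and Setd4 and Cbr1 show every cKO library above every control library of the same state.

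Of 5 genes for chromatin proteins, 3 were higher and 2 lower in activated cKO cells, and 2 were higher and 2 lower in activated control cells. Hmgn1, which encodes a nucleosome-binding protein and stood at 43.4 ± 6.82 FPKM in activated cKO (SD, n = 3) and 40.2 ± 4.93 FPKM in activated control cells (SD, n = 2), rose by 0.85 (SE 0.05) and 0.71 (SE 0.06). Setd4 rose by 0.75 (SE 0.09) and 1.00 (SE 0.11), from the values given above. Brwd1, which encodes a bromodomain protein, fell by 0.60 (SE 0.05) and 0.44 (SE 0.06), and Morc3, an ATPase gene of nuclear bodies, by 0.34 (SE 0.05) and 0.33 (SE 0.06). The edgeR adjusted p was at most 0.000381 for each of these in each genotype. Chaf1b, a subunit of the histone chaperone CAF-1, had 14.2, 13.7 and 19.8 CPM in activated against 10.4, 13.3 and 12.1 CPM in rested cKO cells, and 13.0 and 14.8 CPM in activated against 12.6 and 11.2 CPM in rested control cells. The activated libraries lay above the rested ones in both genotypes, narrowly (log2 fold change 0.40, SE 0.13, edgeR adjusted p = 0.0154 in cKO, and 0.22, SE 0.16, adjusted p = 0.272 in control cells). The cKO call was lost without cKO mouse 1 (adjusted p = 0.0691) or cKO mouse 3 (0.164, at a log2 fold change of 0.24), and without cKO mouse 2 the value was 0.61. The difference between genotypes was 0.19 (SE 0.20). Of its 5 partners in chromatin assembly outside the interval, all 5 rose in cKO and 4 in control cells, among them Chaf1a, the large CAF-1 subunit (2.81 and 2.69), and Pcna, the replication clamp (1.14 and 1.09), and their median was 0.78 and 0.77.

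Among 6 genes for kinases, exchange factors and the calcineurin regulator, 4 were higher, 1 lower and 1 not called in each genotype. Tiam1, an exchange factor for the GTPase Rac, had 4.65, 3.54 and 6.66 CPM in activated against 2.31, 1.97 and 2.49 CPM in rested cKO cells, and 4.68 and 5.13 CPM in activated against 2.01 and 2.13 CPM in rested control cells. It rose by 1.11 (SE 0.17) and 1.24 (SE 0.21) on the log2 scale (edgeR adjusted p = 7.73e-05 and 0.000225). Rcan1, whose promoter window above holds AP-1 and NFAT matches, had 11.5, 10.0 and 10.4 CPM in activated against 8.47, 8.12 and 8.65 CPM in rested cKO cells, and 9.70 and 10.1 CPM in activated against 8.51 and 7.17 CPM in rested control cells. Its groups did not overlap, but the rise was small (0.34, SE 0.10, and 0.34, SE 0.12, edgeR adjusted p = 0.0101 and 0.0311) and was lost without cKO mouse 1 in cKO cells (0.087) and without control mouse 2 in control cells (0.452, at a log2 fold change of 0.20). Of 8 other calcineurin and NFAT genes tested, 1 rose, Nfatc1 (0.95 in cKO and 1.08 in control cells), and 6 fell in each genotype, among them the calcineurin subunit Ppp3ca (-0.87 and -0.88) and Rcan3 (-1.20 and -1.15), and the median of the 8 was -0.69 and -0.65. Itsn1, an endocytic scaffold and exchange factor gene, fell by 0.70 (SE 0.10) and 0.76 (SE 0.12), and Dyrk1a, a kinase that phosphorylates NFAT, was not called (-0.12, SE 0.05, edgeR adjusted p = 0.0573 in cKO and -0.08, SE 0.06, adjusted p = 0.281 in control cells).

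Hunk and Ripk4 are kinase genes of low level that rose on activation. Hunk had 49, 63 and 93 raw counts in activated against 0, 6 and 0 in rested cKO cells, and 100 and 170 in activated against 3 and 0 in rested control cells. By library totals it was 32.3-fold higher in activated cKO cells (exact 95% interval 14.6 to 89.1) and 85.7-fold higher in activated control cells (29 to 418). These intervals pool the counts of a group's mice and cover counting error only, not the spread between mice. All rested cKO counts came from mouse 2 and all rested control counts from mouse 1, and without these mice the rested level was 0. Against the floor of 3 counts over the group, Hunk was then 42.6-fold higher in activated cKO and 50.1-fold higher in activated control cells. Ripk4 had 68, 90 and 29 counts in activated against 25, 21 and 7 in rested cKO cells, and 64 and 27 in activated against 12 and 4 in rested control cells. It rose by 1.68 (SE 0.30) and 2.42 (SE 0.42), although in cKO cells its CPM overlapped, because mouse 3 was lowest in both states. Gm15340, a lncRNA gene beyond Ets2 that was read only in activated libraries, had 30, 45 and 18 counts in activated and 0, 0 and 0 in rested cKO cells, and 34 and 44 in activated and 0 and 0 in rested control cells. Against the same floor Gm15340 was 29.3-fold higher in activated cKO and 24.8-fold higher in activated control cells. These floor ratios leave out the counting error of the activated libraries. Gm15340, Hunk and Ripk4 reached the minimum of 100 counts through their activated libraries, so their rise is given as a description and is no test.

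Among the enzymes, Gart, which catalyses several steps of purine synthesis, had 204, 182 and 241 CPM in activated against 67.5, 70.9 and 64.6 CPM in rested cKO cells, and 179 and 228 CPM in activated against 66.1 and 62.3 CPM in rested control cells. It rose by 1.62 (SE 0.10) and 1.66 (SE 0.12) on the log2 scale (edgeR adjusted p = 1.12e-07 and 8.55e-07). Of 12 other genes of purine synthesis tested, 10 rose and 2 were not called in each genotype, against the 31.5% and 28.5% of all genes that were higher. Their median log2 fold change was 1.07 in cKO and 1.05 in control cells, against -0.01 and -0.00 over all genes, with Pfas at 1.49 and 1.46 and Ppat, the first committed enzyme, at 1.37 and 1.27. Sod1, the cytosolic superoxide dismutase gene, was the second most abundant member per length in all 4 groups. It had 243, 273 and 277 CPM in activated against 200, 209 and 217 CPM in rested cKO cells, and 245 and 235 CPM in activated against 208 and 184 CPM in rested control cells. The rise was 0.34 (SE 0.07) and 0.29 (SE 0.08), and the control call (edgeR adjusted p = 0.00784) was lost without control mouse 2 (0.103). Hlcs, which attaches biotin to carboxylases, fell by 1.12 (SE 0.08) and 1.00 (SE 0.10), and Cbr1 by 0.73 (SE 0.08) and 0.68 (SE 0.10).

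Genes of ribosome production, protein assembly and transport divided as well. Urb1, a nucleolar factor of ribosome biogenesis, had 112, 99.8 and 123 CPM in activated against 47.9, 51.6 and 56.0 CPM in rested cKO cells, and 111 and 134 CPM in activated against 53.3 and 52.4 CPM in rested control cells. It rose by 1.10 (SE 0.07) and 1.20 (SE 0.08, edgeR adjusted p = 1.07e-08 and 7.03e-08). Scaf4, whose protein acts in ending transcripts of RNA polymerase II, rose by 0.31 (SE 0.05) and 0.34 (SE 0.06), and overlaps Sod1 by 650 bp on the opposite strand. Cfap298, a gene of cilia, rose by 1.12 (SE 0.13) and 0.88 (SE 0.15), and Dnajc28, which encodes a J-domain protein, fell by 1.05 (SE 0.13) and 1.17 (SE 0.16). Psmg1, a chaperone of proteasome assembly, rose by 1.30 (SE 0.09) and 1.09 (SE 0.10), and Slc5a3, the sodium-coupled myo-inositol transporter, by 1.61 (SE 0.07) and 1.55 (SE 0.09). Gm49711 rose by 2.32 (SE 0.09) and 2.36 (SE 0.11). On the same strand it overlaps Mrps6, a gene the rule left out, over 53912 bp and Slc5a3 over 29152 bp. Slc5a3 overlaps Mrps6 as well, so reads may have been divided between these genes. Mrps6 had 8360 counts in activated against 1495 in rested cKO cells, and 5460 against 979 in control cells. Of 6 genes of GPI anchoring, protein insertion, sorting and ubiquitination, Psmg1 alone rose and the other 5 fell in both genotypes. These were Ttc3, a ubiquitin ligase (-0.92 and -0.77), Dop1b (-0.90 and -0.89), Vps26c of endosomal sorting (-0.45 and -0.36), Wrb of tail-anchored protein insertion (-0.38 and -0.48) and Pigp of GPI anchor synthesis (-0.37 and -0.42). The Pigp call in cKO cells was lost without cKO mouse 1 (-0.24) or cKO mouse 2 (-0.33). Without control mouse 2 the control calls of Pigp (-0.24) and Wrb (-0.39) were lost.

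The lncRNA and predicted genes of the interval added a few wider changes. A930006K02Rik, between Il10rb and Ifnar1, had 4.63, 5.57 and 3.73 CPM in activated against 14.8, 12.8 and 10.4 CPM in rested cKO cells, and 5.37 and 3.65 CPM in activated against 12.5 and 11.7 CPM in rested control cells. It fell by 1.45 in both genotypes (SE 0.12 and 0.15, edgeR adjusted p = 1.97e-07 and 2.28e-06), in the same direction as the receptor genes beside it. A930006K02Rik overlaps the pseudogene Gm49626 over 5004 bp on the same strand, so reads may have been divided between them. Gm49626 had 255 counts in activated against 689 in rested cKO cells, and 189 against 486 in control cells. A630089N07Rik, a protein-coding model, rose by 1.69 (SE 0.17) and 1.80 (SE 0.21), and overlaps the antiparallel B230307C23Rik, which rose by 0.66 and 0.80, over 30492 bp. Gm30881, between Dop1b and Morc3 and overlapping both on the opposite strand, had 8, 13 and 21 counts in activated against 63, 63 and 60 in rested cKO cells and fell by 2.28 (SE 0.35). In control cells it had 25 and 20 counts in activated against 78 and 53 in rested cells and fell by 1.66 (SE 0.40). Gm30881 reached the count minimum through its rested libraries, so its fall is given as a description and is no test. Mis18a (-0.27 and -0.35), Tmem50b (-0.35 and -0.33), Gm10785 (-0.76 and -0.74) and C2cd2 (-0.57 and -0.52) also fell in both genotypes, and the control calls of the first 3 were lost without control mouse 2. Because the use of strand in counting is not given in the sources used here, such overlapping pairs cannot be told apart with certainty.

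The most abundant gene of the interval was not called. Son, which encodes a splicing cofactor, led all 63 genes per length in every group, at 76.0 ± 4.87 FPKM in activated and 76.4 ± 1.12 FPKM in rested cKO cells (SD, n = 3), and 83.3 ± 1.37 FPKM in activated and 77.5 ± 0.888 FPKM in rested control cells (SD, n = 2). Its log2 fold change was -0.07 (SE 0.05) in cKO and 0.04 (SE 0.07) in control cells, and its neighbour Donson, a replication fork gene, differed by -0.09 (SE 0.05) and 0.01 (SE 0.07). Neither was called (edgeR adjusted p = 0.241 and 0.159 in cKO cells, 0.648 and 0.93 in control cells). Donson overlaps Atp5o, a gene the rule left out, over 4373 bp on the same strand, and Cryzl1 overlaps it over 39654 bp. Reads may have been divided between these genes. Smim11 was not called by edgeR in either genotype (0.14, SE 0.08, in cKO and -0.01, SE 0.09, in control cells), but in cKO cells it passed with a filter of 5 CPM in 2 libraries (adjusted p = 0.0419) and by limma on log2(FPKM + 0.5) (0.00235). Paxbp1, Fam3b, Gm49625 and 1700093J21Rik were also called in neither genotype. By FPKM level, the 4 receptor genes ranked above Runx1 and Ets2 at rest. Gart held rank 4 among the 63 genes in activated and rank 16 in rested cKO cells, and rank 3 in activated and rank 19 in rested control cells.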

How the data were processed

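RNA counts of 10 libraries were analysed. Per the labels' protocols, libraries came from a stranded mRNA kit, and the submitters' processing notes name mm39, Subread, FastQC and MultiQC without versions. The use of strand is not given in the sources used here. The deposited counts are whole reads per gene. The FPKM values the authors deposited equal the count scaled by gene length plus 1 and column sum, within a relative deviation of 9.4e-07, and served for levels per length and as an alternative. Counts were fitted with edgeR 4.0.16 in R 4.3.3 by a robust quasi-likelihood fit of group means plus sex over all 10 libraries, after TMM scaling and the filter of filterByExpr. All 63 genes passed the filter, among 18966 genes tested. CPM are counts over the TMM-scaled library size. P-values were adjusted by Benjamini-Hochberg over all genes tested, with a threshold of 0.05. Biological variation between libraries (coefficient) came to 9.14%, on 5 residual degrees of freedom. The steps were tested on simulated data.

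The members and all lists were chosen with earlier results of these data known. The genes named are the lncRNA trio, the 6 nearest members on each side, the members of role lists, and up to 8 changed genes per direction and activation comparison with a mean of at least 5 CPM and no overlap. Gm21970, A630089N07Rik's overlap partner, Gm15340, Paxbp1, Gm49625, 1700093J21Rik, Synj1, Gm31323, Cryzl1, Mis18a, Tmem50b, Gm10785 and C2cd2 were named after their values were seen. Each mouse is a separate animal, and its 2 libraries pair by design (deviations from group means correlated at 0.25, 0.15 and 0.33 in cKO and 0.36 in control mice, which mirror each other). Libraries of a group differed beyond sampling noise. Sex coincides with a number in the mouse names. Alternatives were DESeq2 1.42.0 (size factors and Wald test), low-count filters, no sex term, a mouse block, limma 3.58.1 on log2(FPKM + 0.5) and log2(FPKM + 0.1), fitting only the groups compared, and leaving out each mouse. Python 3.11.15 was used for tables and figures.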

Additional observations from a re-analysis of the deposited data

How the results depend on the processing

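The counts of interval genes that changed on activation stayed within 1.5 times under every alternative run, at 47 in cKO and 45 in control cells with the mouse as a replicate block (paired fit), as without it, and no interaction was called with the block. Leaving out each mouse gave 44 to 47 in cKO and 35 to 45 in control cells, the lowest without control mouse 2, when 10 calls were lost. No direction of a called result reversed. The count of genes past the threshold by genotype, which the choice of the lncRNA trio fixes and from which nothing is read, is 2 in each state as reported. It was 0 in both states with a filter of 5 CPM in 2 libraries, which removes these low genes, and 0 with log2(FPKM + 0.5). It was 1 in both states with log2(FPKM + 0.1), and in activated cells 0 by DESeq2's Wald test and 1 when only the groups compared were fitted, where the cause was not tested. It was 3 at rest by DESeq2's Wald test and 3 in both states with no low-count filter. Leaving out each mouse gave 0 to 2 in each state (0 without cKO mouse 3, 1 without cKO mouse 1, control mouse 1 or control mouse 2), and limma-voom with the mouse as a random replicate block gave 2 in each. Fits with 1 control mouse left assume that this mouse varies as the others do. Counts of under about 70 per library limit the lncRNA genes, so small changes in them could not be detected.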
